A study of Mus musculus with 6 samples.

Results

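The peptide loading machinery of MHC class I, together with its regulator Nlrc5, was followed in RAW264.7 cells through 9 genes: Tap1, Tap2, Tapbp, Tapbpl, Erap1, Nlrc5, Calr, Canx and Pdia3. They were taken by symbol from the deposited tables, as 9 of 54532 genes listed, in a choice made with earlier results of these data known. All 9 passed the filter on low counts, which left 12491 genes for testing. RAW264.7 is a mouse macrophage line that is grown in culture, and these libraries were made from its total RNA. The design text asks which genes differ once ERMAP, a membrane protein of the butyrophilin family, is knocked down. The 3 control libraries carry the genotype WT and no treatment tag. The other 3, written here as the libraries labelled ERMAP shRNA, carry the genotype ERMAP Knockdown and the treatment shRNA, a short hairpin RNA. The protocol text mentions an ERMAP-shRNA lentivirus on all 6 samples, so it does not settle what the controls received, and no non-targeting hairpin is described. No clone, passage or time after transduction is given.

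MHC class I molecules show peptides from inside the cell to CD8 T cells. Peptides made by the proteasome in the cytosol are pumped into the endoplasmic reticulum (ER) by a transporter built from TAP1 and TAP2, and the aminopeptidase ERAP1 trims them there to a length that fits the groove. Tapasin, the product of Tapbp, ties an empty class I molecule to the transporter and favours peptides that bind tightly, while its relative TAPBPR, the product of Tapbpl, edits peptides outside that complex. Calnexin (Canx) and calreticulin (Calr) are chaperones that hold newly made glycoproteins through their sugars, and the disulfide isomerase ERp57 (Pdia3) is joined to tapasin in the loading complex. These last 3 serve glycoprotein folding in general. NLRC5 is a nuclear protein that gathers, with the RFX and NF-Y factors, on the promoters of class I genes and of several of their helpers. In macrophages interferons raise many genes of this route.

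The promoters of the members differ in the motifs they hold. RefSeq starts were matched in GRCm38.p6 for 6 of the 9 genes, and Tap2, Tapbpl and Nlrc5 had no entry in the table used. Each line below runs 5′ to 3′ on the gene's own strand, and capitals mark the motif matches. Tap1 is shown since its window is shared with Psmb9, an immunoproteasome gene that is read in the opposite direction: the RefSeq starts of both lie 226 bases apart. Calr and Canx are shown since both hold the ER stress response element (ERSE), searched as CCAAT and CCACG with 9 bases between, and a short stretch of Erap1 since it holds the core of the interferon-stimulated response element (ISRE), searched as GAAA and GAAA with 2 bases between. The first 3 are the 250 bases before the start, chr17:34187306-34187555 for Tap1, chr8:84846932-84847181 for Calr and chr11:50325674-50325923 for Canx, and the Erap1 stretch is chr13:74639803-74639862, which reaches 10 bases past the start. Tap1 and Erap1 are on the plus strand, Calr and Canx on the minus strand.
Tap1: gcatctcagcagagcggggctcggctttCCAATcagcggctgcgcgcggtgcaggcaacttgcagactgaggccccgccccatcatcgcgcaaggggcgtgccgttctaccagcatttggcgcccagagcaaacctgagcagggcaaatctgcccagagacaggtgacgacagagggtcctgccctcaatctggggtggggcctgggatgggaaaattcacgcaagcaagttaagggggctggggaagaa
Calr: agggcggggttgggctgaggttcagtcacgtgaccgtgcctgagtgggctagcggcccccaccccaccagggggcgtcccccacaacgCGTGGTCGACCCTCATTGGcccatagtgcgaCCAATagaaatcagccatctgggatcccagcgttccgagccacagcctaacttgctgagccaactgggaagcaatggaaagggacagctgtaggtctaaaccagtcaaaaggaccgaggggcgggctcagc
Canx: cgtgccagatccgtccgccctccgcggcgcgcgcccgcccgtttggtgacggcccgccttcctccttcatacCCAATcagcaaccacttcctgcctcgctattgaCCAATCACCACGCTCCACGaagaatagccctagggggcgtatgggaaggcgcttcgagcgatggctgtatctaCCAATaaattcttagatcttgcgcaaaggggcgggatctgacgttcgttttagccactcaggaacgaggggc
Erap1: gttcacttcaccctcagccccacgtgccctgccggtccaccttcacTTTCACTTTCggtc
The capitals in Tap1 are a CCAAT box, the letters that NF-Y binds, at -222 to -218 counted from the start. Canx holds its ERSE at -145 to -127 on the gene's strand, and Calr holds one on the reverse strand at -162 to -144. In both, 1 CCAAT box is part of the ERSE, and the remaining capitals are CCAAT boxes that stand alone. The Erap1 match reads TTTCACTTTC on the gene's strand, so the ISRE core lies on the reverse strand, from -4 to 6 across the start. The RefSeq starts of Erap1, Tapbp and Pdia3 lie inside the spans that the deposited table gives for these genes, not at their edges. For Tapbp the 250 bases before the start are chr17:33919228-33919477, while the span begins at 33915899. Tapbp and Pdia3 each hold 2 CCAAT boxes and none of the other motifs. The interferon gamma activated site (GAS), searched as TTC and GAA with 3 bases between, was found in none of the 6 windows. All motifs were searched on both strands of windows that run from 250 bases before to 50 bases after the start. Among 32851 such windows, 37.4% held a CCAAT box, 8.3% a GAS, 3.44% an ISRE core and 0.119% an ERSE. A match is a description of the letters and not a site of binding.

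Summed counts per library ranged from 13447021 to 16602734. Ermap, the gene named on the labels, had counts of 12, 12 and 3 in control against 10, 21 and 14 in the labelled group, with a log2 fold change of 0.81 (edgeR adjusted p = 0.929), so its mRNA gives no check of the knockdown and every direction below is that of the labels. Whether the replicates come from separate cultures is not stated, so a p-value here reads nothing but library-to-library spread, which could be technical. Control replicate 1 stood apart: mitochondrial transcripts made up 3.69% of its counts, against 1.71% to 2.18% in the other 5 libraries. The richer in GC a transcript was, the lower this library lay against the other controls (Spearman rho = -0.77 over 10765 protein-coding genes, which do not count as independent replicates). For that reason results that rest on it are given with and without it.

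Tap1 rose about 2-fold and was the only member called. Among the 9 members, 1 was called higher and 0 lower by the edgeR quasi-likelihood test at an adjusted p under 0.05, where 1.01% of all tested genes were called higher and 0.136% lower. By the unadjusted p (under 0.05), 4 members were higher (Tap1, Tap2, Tapbp and Nlrc5) and 0 lower, against 3.71% and 3.04% of all tested genes, and DESeq2 and limma-voom also called 0 lower (of all tested genes, 0.568% and 0.128%). DESeq2 called 3 members higher, against 1.62% of all tested genes, the fit with library weights 5, against 2.74%, and the fit with no filter on low counts 2, against 0.698%. All 9 log2 fold changes of the libraries labelled ERMAP shRNA over control were positive, with a median of 0.26, while the median over all tested genes was -0.01 and 48.3% of them were positive. The members' median was 0.39 without control replicate 1 and 0.20 to 0.31 without each of the other libraries in turn. In 6 of the 9 members the labelled libraries lay wholly above the control libraries, against 7.74% of all tested genes. In bulk RNA, more cells that express a gene and more RNA per cell cannot be told apart.

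**Figure D1:**
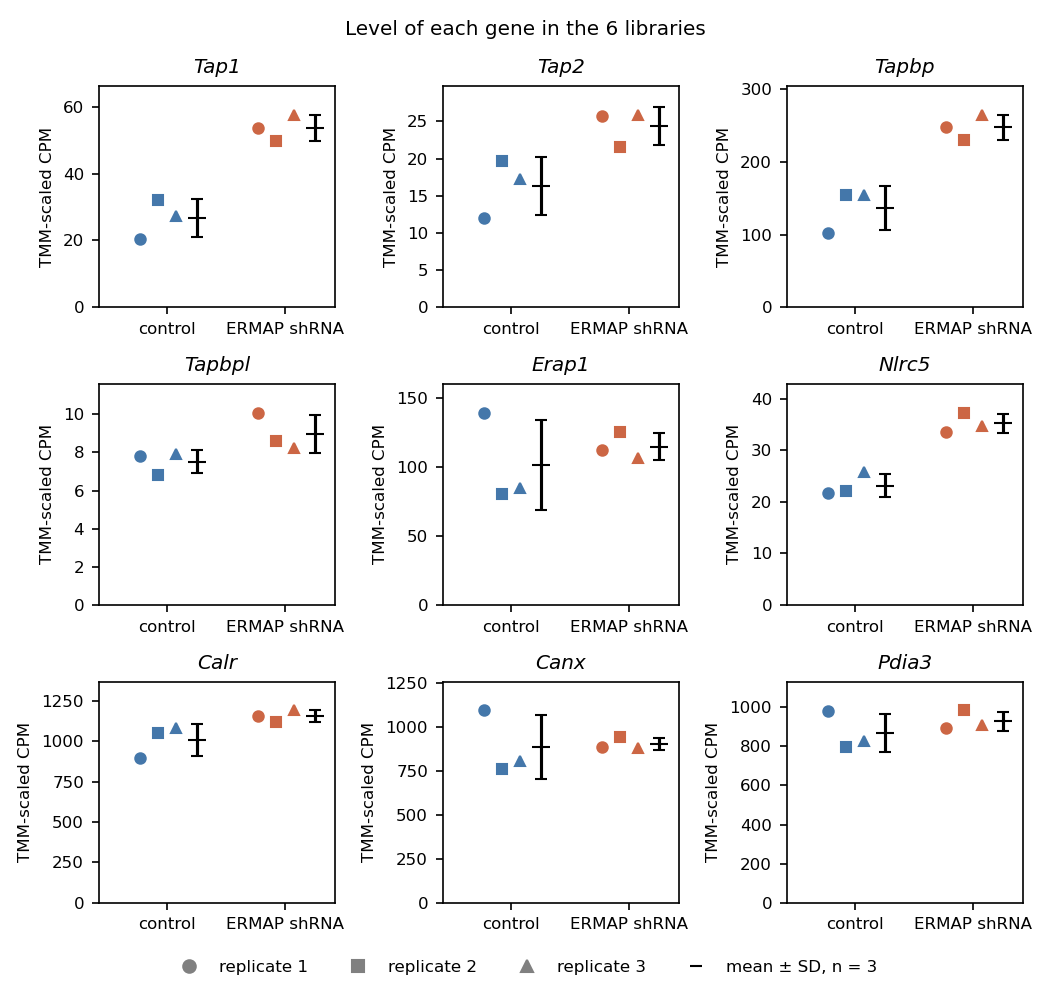
Level of the 9 genes in each library, in TMM-scaled CPM on axes that start at 0. Circles, squares and triangles are replicates 1, 2 and 3, blue for control and orange for the libraries labelled ERMAP shRNA, and bars are the mean ± SD (n = 3). The groups do not overlap in Tap1, Tap2, Tapbp, Tapbpl, Nlrc5 and Calr, and control replicate 1 is the highest of all libraries in Erap1 and Canx.

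Tap1 (ENSMUSG00000037321, mm10 chr17:34187553-34197225, plus strand) encodes the transporter chain whose gene sits beside Psmb9. Its level was 20.5, 32.0 and 27.5 CPM in control replicates 1 to 3, where CPM are counts relative to library size, scaled by TMM factors. It was 53.6, 49.9 and 57.6 CPM in the labelled replicates 1 to 3. Every labelled library was above every control, and control replicate 1 was the lowest of the 6. The means were 26.7 ± 5.79 and 53.7 ± 3.86 CPM (SD, n = 3), a log2 fold change of 1.01 (SE 0.17, 95% interval 0.62 to 1.39) or 2.01-fold (1.54 to 2.63), with an edgeR adjusted p = 0.034. The call was lost without control replicate 3 or without any 1 of the labelled libraries (edgeR adjusted p = 0.129 to 0.216), while the log2 fold change stayed between 0.96 and 1.05 there. Without control replicate 1 it was 0.84 (edgeR adjusted p = 1.61e-06).

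Tap2 (ENSMUSG00000024339, chr17:34203527-34216321, plus strand) encodes the other chain of the transporter. Its 3 control libraries had 12.0, 19.6 and 17.2 CPM and the labelled libraries 25.8, 21.5 and 25.9 CPM. The groups did not overlap, and control replicate 2 and labelled replicate 2 came closest to each other. Means were 16.3 ± 3.88 and 24.4 ± 2.50 CPM (SD, n = 3), with a log2 fold change of 0.58 (SE 0.19, 95% interval 0.14 to 1.02) and an edgeR adjusted p = 0.443, so the difference was not called. It stayed uncalled without control replicate 1 (0.39, edgeR adjusted p = 0.0534), and was called with offsets for GC content (0.51, edgeR adjusted p = 0.0215). A transporter needs both chains. The intervals of their fold changes overlap, and the ratio of Tap1 to Tap2 is given below.

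Tapbp (ENSMUSG00000024308, chr17:33915899-33929288, plus strand), the gene of tapasin, had the second largest fold change of the 9. The control libraries had 102.0, 154.0 and 155.1 CPM, and the labelled libraries 247.9, 230.1 and 265.0 CPM. The lowest labelled library lay well above the highest control, and control replicate 1 again was the lowest. Means were 137.0 ± 30.4 and 247.6 ± 17.4 CPM (SD, n = 3), a log2 fold change of 0.85 (SE 0.17, 95% interval 0.47 to 1.24) or 1.81-fold, with an edgeR adjusted p = 0.0696, which missed the threshold. Without control replicate 1 the log2 fold change was smaller, 0.67, and Tapbp was called higher (edgeR adjusted p = 3.07e-07). It was also called with GC offsets (0.79, edgeR adjusted p = 1.37e-05) and by DESeq2 (adjusted p = 0.00027).

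Tapbpl (ENSMUSG00000038213, chr6:125223933-125231860, minus strand), the gene of the second peptide editor, was far lower in count than Tapbp. Its levels were 7.81, 6.80 and 7.92 CPM in control against 10.1, 8.59 and 8.25 CPM in the labelled libraries. The groups did not overlap, but the lowest labelled library was close to the highest control. Means were 7.51 ± 0.617 and 8.97 ± 0.978 CPM (SD, n = 3), with a log2 fold change of 0.26 (SE 0.16, 95% interval -0.11 to 0.62, edgeR adjusted p = 0.923). It was called in 0 of 17 alternatives and also not without control replicate 1 (0.28, edgeR adjusted p = 0.448), and its lowest value was 0.17, without labelled replicate 1. The interval allows a change from slightly below 0 to about the size seen for Tap2.

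Erap1 (ENSMUSG00000021583, chr13:74639568-74693201, plus strand), the aminopeptidase that trims peptides in the ER, was not called in the edgeR fit of all 6 libraries. The controls had 139.1, 80.2 and 84.7 CPM and the labelled libraries 111.9, 125.4 and 106.3 CPM. The groups overlapped only through control replicate 1, the highest of all 6 libraries: the other 2 controls lay below every labelled library. Means were 101.3 ± 32.8 and 114.5 ± 9.83 CPM (SD, n = 3), with a log2 fold change of 0.18 (SE 0.21, 95% interval -0.31 to 0.66, edgeR adjusted p = 0.942). Without control replicate 1 the log2 fold change was 0.47 and Erap1 was called higher (edgeR adjusted p = 0.000287). Leaving out control replicate 2 gave 0.028, control replicate 3 gave 0.065 and labelled replicate 2 gave 0.0999, uncalled in each. Of the fits that keep all 6 libraries, GC offsets gave 0.31 and no call (edgeR adjusted p = 0.0723), while library weights gave 0.41 and a call (limma adjusted p = 0.00912). Of 348 tested genes with the ISRE core in the window, 32 (9.2%) were called higher and 1 lower, against 1.01% and 0.136% of all tested genes. The median log2 fold change of the 348 was 0.042, with 206 positive. Whether the motif bears on Erap1 was not tested.

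Nlrc5 (ENSMUSG00000074151, chr8:94434356-94527272, plus strand), the regulator of class I promoters, varied little within each group. The control libraries had 21.7, 22.04 and 25.7 CPM and the labelled libraries 33.5, 37.3 and 34.7 CPM. The groups did not overlap, and control replicate 1 lay beside control replicate 2. Means were 23.1 ± 2.20 and 35.2 ± 1.90 CPM (SD, n = 3), a log2 fold change of 0.60 (SE 0.12, 95% interval 0.33 to 0.88) or 1.52-fold, with an edgeR adjusted p = 0.0664, which just missed the threshold. Nlrc5 was called higher without control replicate 1 (0.56, edgeR adjusted p = 0.000959), with GC offsets (0.57, edgeR adjusted p = 0.00876) and by DESeq2 (0.60, adjusted p = 0.00135). Leaving out any 1 of the other 5 libraries did not lead to a call, and its adjusted p in edgeR reached 0.389.

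The 3 general chaperones were the most abundant members, and their log2 fold changes were 0.20 or less. Calr (ENSMUSG00000003814, chr8:84841850-84846934, minus strand), the gene of calreticulin, had 896.8, 1049.6 and 1083.6 CPM in control against 1159.8, 1120.0 and 1191.9 CPM in the labelled libraries. The groups did not overlap, with control replicate 1 lowest. The log2 fold change was 0.20 (SE 0.10, edgeR adjusted p = 0.855, 95% interval -0.03 to 0.43), from 1010 ± 99.5 to 1157 ± 36.0 CPM (SD, n = 3). Without control replicate 1 it was 0.11 (edgeR adjusted p = 0.382).

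Canx (ENSMUSG00000020368, chr11:50293961-50325673, minus strand), the gene of calnexin, had 1092.9, 762.1 and 804.0 CPM in control against 885.6, 944.6 and 877.6 CPM in the labelled libraries. Control replicate 1 was above all other libraries, and the other 2 controls were below all labelled ones. The log2 fold change was 0.03 (SE 0.14, edgeR adjusted p = 0.98, 95% interval -0.30 to 0.36), from 886 ± 180 to 903 ± 36.6 CPM (SD, n = 3). Its sign turned when control replicate 2 (-0.076), control replicate 3 (-0.037) or labelled replicate 2 (-0.014) was left out. Without control replicate 1 it was 0.20 and not called (edgeR adjusted p = 0.0736).

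Pdia3 (ENSMUSG00000027248, chr2:121413775-121438687, plus strand), the gene of ERp57, had 981.4, 797.4 and 824.9 CPM in control against 895.1, 983.2 and 907.1 CPM in the labelled libraries. The groups overlapped, since control replicate 1 stood beside the highest labelled library. The log2 fold change was 0.10 (SE 0.11, edgeR adjusted p = 0.938, 95% interval -0.15 to 0.34), from 868 ± 99.3 to 928 ± 47.8 CPM (SD, n = 3), and 0.19 without control replicate 1 (edgeR adjusted p = 0.0986). When control replicate 2 was left out it was 0.035, for control replicate 3 it was 0.064, and for labelled replicate 2 it was 0.048. The intervals of all 3 chaperones end below the point where that of Tap1 begins, at 0.43, 0.36 and 0.34 against 0.62. That of Tapbp also begins above them, at 0.47. Those of Tap2, Tapbpl, Erap1 and Nlrc5, which begin at 0.14, -0.11, -0.31 and 0.33, overlap the intervals of all 3.

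**Figure D2:**
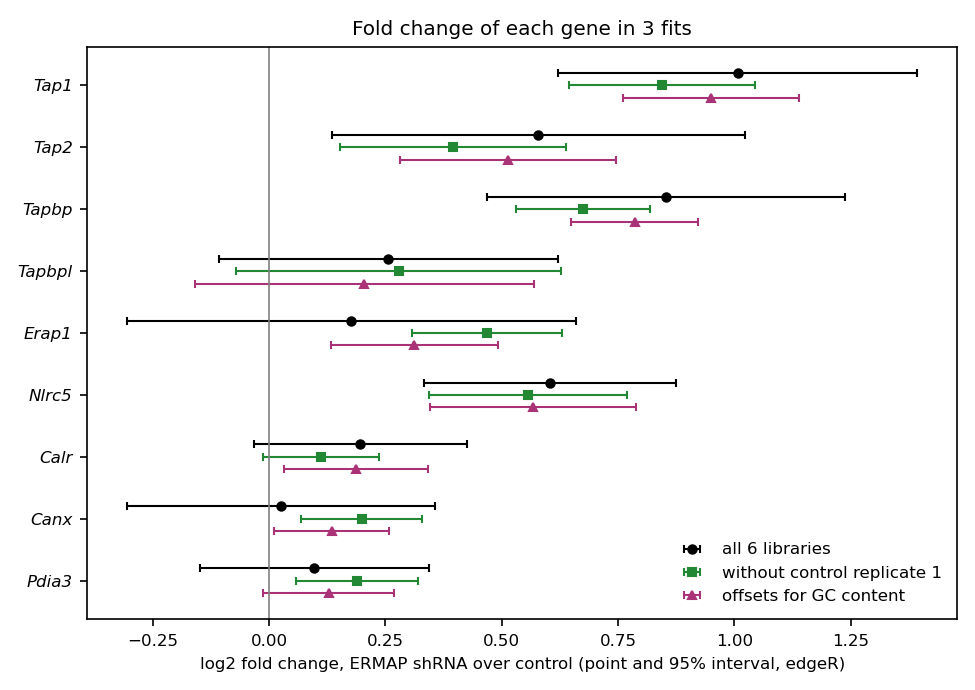
Log2 fold change of the 9 genes, libraries labelled ERMAP shRNA over control, as points with 95% intervals from edgeR in 3 fits: all 6 libraries (black), without control replicate 1 (green) and with offsets for GC content (purple). Intervals of Tap1, Tap2, Tapbp and Nlrc5 lie above 0 in all 3 fits, and the intervals without control replicate 1 are narrower than those with all libraries.

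Control replicate 1 deviated in opposite directions in the members richest and poorest in GC. Against the mean of the other controls, its log2 CPM was lower by 0.53 in Tap1, 0.61 in Tap2 and 0.60 in Tapbp, the 3 members richest in GC (55.8%, 56.9% and 57.1%). It was higher by 0.75 in Erap1, 0.48 in Canx and 0.28 in Pdia3, the 3 members poorest in GC (41.5%, 42.2% and 46.9%). Calr, Nlrc5 and Tapbpl lay between, at -0.25, -0.13 and 0.09. The median GC content of tested protein-coding genes was 49.6%, with quartiles of 44.7% and 54.4%. Without this library the log2 fold change was smaller in Tap1, Tap2, Tapbp, Nlrc5 and Calr and larger in Erap1, Canx, Pdia3 and Tapbpl. In that fit 4 members were called higher, Tap1, Tapbp, Erap1 and Nlrc5, where 2.67% of all tested genes were, and all 9 had groups without overlap, where 15.7% of all tested genes did. With GC offsets 4 members were called higher, Tap1, Tap2, Tapbp and Nlrc5, where 2.14% of all tested genes were.

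**Figure D3:**
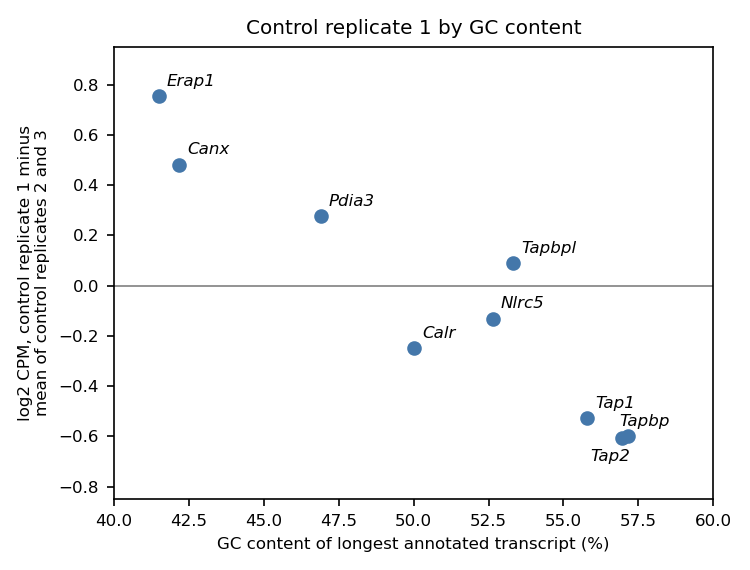
GC content of the longest annotated transcript (x axis, in percent) and the log2 CPM of control replicate 1 minus the mean of control replicates 2 and 3 (y axis) for the 9 genes. Values run from 0.75 in Erap1 to -0.61 in Tap2.

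Levels of different genes can be compared only per length, in the FPKM the authors deposited. In control the order was Calr (348 FPKM), Pdia3 (274), Canx (187), Tapbp (41.2), Erap1 (13.8), Tap1 (4.83), Tap2 (4.27), Tapbpl (3.17) and Nlrc5 (2.70), as mean FPKM over 3 libraries. The general chaperones thus stood above every dedicated member. The ranges of neighbours overlapped between Calr and Pdia3, Tap1 and Tap2, Tap2 and Tapbpl, and Tapbpl and Nlrc5. In the libraries labelled ERMAP shRNA the mean FPKM were 399 for Calr, 294 for Pdia3, 191 for Canx, 74.7 for Tapbp, 15.6 for Erap1, 9.75 for Tap1, 6.41 for Tap2, 4.12 for Nlrc5 and 3.79 for Tapbpl. Nlrc5 and Tapbpl, which changed places, were the only neighbours whose ranges overlapped there. Tapbp was the most abundant dedicated member in both groups, several times above the transporter chains it binds. The deposited span of Tapbp holds all of Zbtb22 on the same strand. The count and length behind its FPKM may thus include bases outside the tapasin mRNA, which was not tested.

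Ratios within a library compare partners and leave out the scaling between libraries. The FPKM ratio of Tap1 to Tap2 was 1.18, 1.13 and 1.10 in control and 1.43, 1.60 and 1.54 in the labelled libraries. The ranges did not overlap, the difference of log2 ratios was 0.42, and the exact two-sided permutation p = 0.1 is the smallest that 3 against 3 libraries can give (0.167 after Benjamini-Hochberg adjustment over 5 ratios). Leaving out 1 library gave 0.39 to 0.47. Control replicate 1 had a ratio like those of the other controls, so both chains stood low together in that library.

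The ratio of Tapbp to Tapbpl was 9.31, 16.2 and 14.0 in control and 17.5, 19.1 and 22.9 in the labelled libraries. There was no overlap, with a log2 difference of 0.62 (exact two-sided permutation p = 0.1, adjusted 0.167), which was 0.39 without control replicate 1. The ratio of Tap1 to Calr was 0.0120, 0.0161 and 0.0133 in control and 0.0243, 0.0234 and 0.0254 in the labelled libraries, again without overlap, with a log2 difference of 0.83 (exact two-sided permutation p = 0.1, adjusted 0.167). Without control replicate 1 this difference was 0.74. Among the chaperones the groups overlapped. Calr to Canx was 1.34, 2.24 and 2.20 in control and 2.13, 1.93 and 2.21 in the labelled libraries, a log2 difference of 0.16 (exact permutation p = 0.9). Calr to Pdia3 was 0.996, 1.43 and 1.43 in control and 1.41, 1.24 and 1.43 in the labelled libraries, a log2 difference of 0.10 (exact permutation p = 0.9). These 2 differences turned to -0.087 and -0.076 once control replicate 1 was left out.

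**Figure D4:**
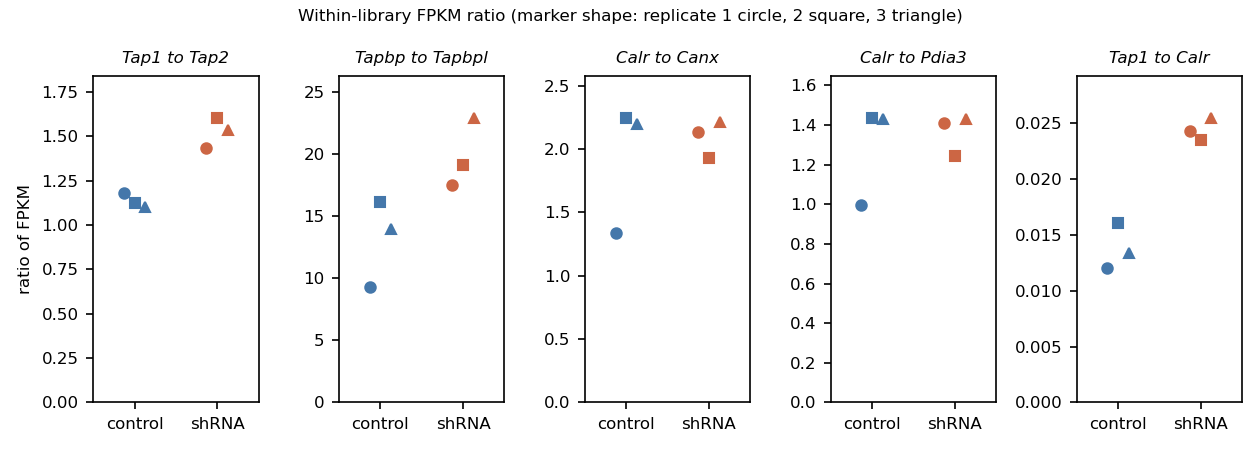
Ratio of deposited FPKM between 2 members within each library, for 5 pairs, on axes that start at 0. Blue points are control and orange points the libraries labelled ERMAP shRNA, with marker shape for the replicate number. The groups do not overlap for Tap1 to Tap2, Tapbp to Tapbpl and Tap1 to Calr, and overlap for Calr to Canx and Calr to Pdia3.

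The genes on either side of the loading step were described from lists. For scale, edgeR called 1.01% of all tested genes higher and 0.136% lower, and 2.67% higher when control replicate 1 was left out. Class I heavy chains and B2m, the molecules to be loaded, had 12 tested genes of 14, of which 2 were called higher and 0 lower, all 12 were positive, and the median log2 fold change was 0.54. The 2 were the non-classical heavy chains H2-T24, which rose from 13.5 ± 0.840 to 136.1 ± 12.7 CPM (SD, n = 3), and H2-T23, which rose from 29.8 ± 4.05 to 103.2 ± 10.2 CPM (SD, n = 3). Both stayed called whichever library was left out, but class I genes are near copies of each other and reads may be split between them. When control replicate 1 was left out, 7 of the 12 were called higher.

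The immunoproteasome and its PA28 activator, which make class I peptides, had 5 tested genes, all positive, with a median log2 fold change of 0.56. Psme1, an activator subunit, was the 1 called higher, with a log2 fold change of 0.56 (edgeR adjusted p = 0.0244), and 0 were called lower. Psme1 kept its call when control replicate 1 was left out and lost it without each of the other 5 in turn (edgeR adjusted p up to 0.219), and 3 of the 5 were called higher without control replicate 1. The list of standard catalytic subunits, which the immunoproteasome subunits replace, and of the nuclear activator PA28 gamma had 4 tested genes, 0 called by edgeR, DESeq2 or limma-voom, and 0 at an unadjusted p under 0.05. Its median of 0.035 turned to -0.065 once control replicate 1 was left out. Of 8 cytosolic and endosomal peptidases, which destroy or trim peptides, 0 were called by the same 3 tools, 0 passed at an unadjusted p under 0.05, 2 were positive and the median was -0.082. With control replicate 1 left out, 4 were positive and the median was 0.013. Abcb9, a lysosomal relative of the transporter, had 1.31 ± 0.448 CPM in control against 1.06 ± 0.544 CPM in the labelled libraries (SD, n = 3, edgeR adjusted p = 0.949).

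Among transcription factors of class I promoters, 2 of 16 tested genes were called higher and 0 lower, with a median of 0.11 (0.18 without control replicate 3). Irf9, the DNA-binding part of the interferon-activated complex ISGF3, rose from 17.5 ± 1.28 to 70.8 ± 3.18 CPM, and its partner Stat2 from 27.7 ± 2.23 to 44.7 ± 1.86 CPM (SD, n = 3). Irf9 stayed called whichever library was left out, while Stat2 lost its call without control replicate 3 or any labelled library (edgeR adjusted p up to 0.212). Leaving out control replicate 1 gave 3 of the 16 called higher. The factors that NLRC5 gathers with had small values: Rfx5, Rfxap, Rfxank, Nfya, Nfyb and Nfyc had log2 fold changes from -0.04 to 0.17 (-0.09 to 0.12 without control replicate 1), and edgeR called none of them in either fit. Ciita, the class II counterpart of Nlrc5, had 9 counts over the 6 libraries and was not tested.

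The list of ER glycoprotein folding and quality control holds 30 tested genes beside Calr, Canx and Pdia3. Of these 0 were called by edgeR, DESeq2 or limma-voom, 2 were higher and 0 lower by the unadjusted p (under 0.05), and 1 was called higher with GC offsets. The median log2 fold change was 0.08, with 21 positive and a range from -0.71 to 0.36. P4hb, the protein disulfide isomerase and the gene with most counts in this list, had 1902 ± 186 CPM in control against 2081 ± 37.1 CPM in the labelled libraries (SD, n = 3, log2 fold change 0.13, edgeR adjusted p = 0.937, and 0.054 without control replicate 1). Calr, Canx and Pdia3 lay within the range of this list, but both ends of the range are uncertain. The lowest gene, Uggt2, had 101 counts in all (SE 0.41), and the highest, Mogs, had 0.12 without control replicate 1. Genes with an ERSE in the window, the motif of Calr and Canx, numbered 37, and of 15 tested 0 were called by edgeR or DESeq2, with 0 at an unadjusted p under 0.05 and a median of 0.077, which was 0.14 when control replicate 1 was left out and 0.040 when control replicate 3 was. Of 8 interferon ligands 0 passed the filter: 7 were at 0 in all libraries, and Ifnb1 had 7 counts, all in the labelled libraries and in 2 of them.

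Tapbp, Tap1 and Tap2 lie in 1 stretch of the MHC on chromosome 17, and their neighbours were measured in the same libraries. Between Tapbp and Tap2 lie 37 genes with these 3 included, and 18 other genes were tested. EdgeR and limma-voom called 0 of the 18, and DESeq2 called 2 higher, against 1.62% of all tested genes. By the unadjusted p (under 0.05) 3 were higher and 0 lower, against 3.71% and 3.04% of all tested genes. Of the 18, 17 were positive, with a median log2 fold change of 0.13. With control replicate 1 left out, 8 were positive and the median turned to -0.084, and it was 0.11 to 0.29 without each of the other libraries in turn. Psmb9, which shares its promoter window with Tap1, went from 19.6 ± 0.930 to 29.6 ± 1.54 CPM (SD, n = 3, log2 fold change 0.59, edgeR adjusted p = 0.0548), and Psmb8 had 0.65 (edgeR adjusted p = 0.276). The heavy chain H2-K1 had 0.40 (edgeR adjusted p = 0.279), and the class II gene H2-Oa, at a mean below 1 CPM in both groups, had 0.75 (edgeR adjusted p = 0.857). Leaving out control replicate 1 gave 3 of the 18 called higher, H2-K1 (0.47), Psmb9 (0.56) and Psmb8 (0.49), where 2.67% of all tested genes were. The genes named in this paragraph were picked after their values were seen.

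**Figure D5:**
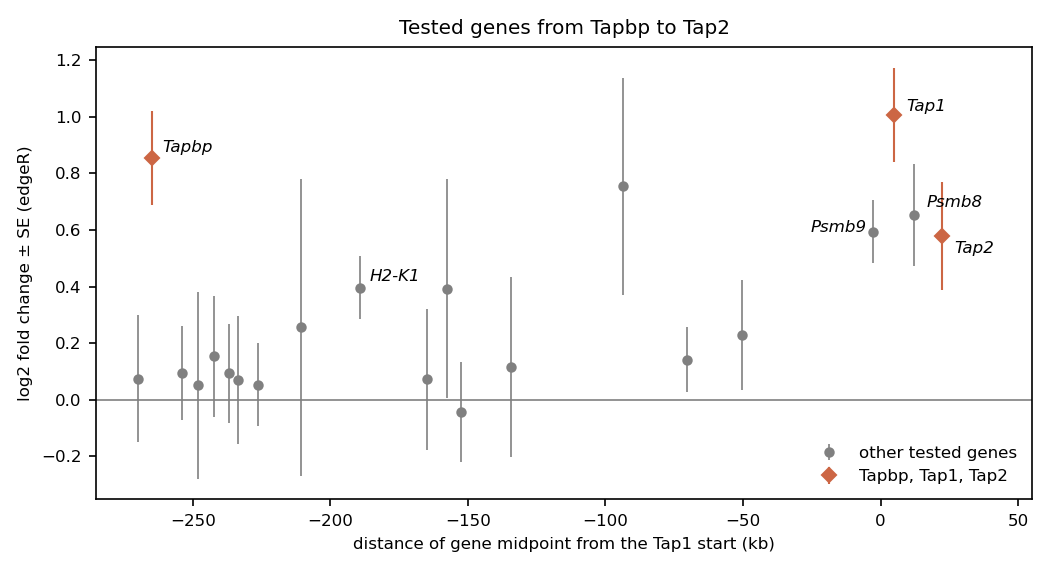
Log2 fold change ± SE (edgeR) of the tested genes from Tapbp to Tap2 against the distance of the gene midpoint from the Tap1 start in kb. Tapbp, Tap1 and Tap2 are orange diamonds at 0.85, 1.01 and 0.58, and the 18 other genes are grey with a median of 0.13, which was -0.084 once control replicate 1 was left out.

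Some members overlap other genes, and the strand setting of the count is not given in the sources used here, so reads in an overlap may be split or shared. Tapbpl lies wholly within Vamp1 (7928 bases, opposite strand), which had a log2 fold change of -0.17 (edgeR adjusted p = 0.906), and this makes the low counts of Tapbpl uncertain. Tap1 overlaps Psmb9 by 212 bases on the opposite strand, and Erap1 overlaps Cast by 834 bases on the opposite strand (Cast -0.45, edgeR adjusted p = 0.428). Zbtb22 lies wholly within the span of Tapbp (3421 bases, same strand), with 2680 counts in all against 17139 for Tapbp. Zbtb22 had a log2 fold change of 0.07 (edgeR adjusted p = 0.966, and -0.16 without control replicate 1). Nlrc5 overlaps the noncoding gene 9330175E14Rik by 748 bases, which had 200 counts in all against 2600 for Nlrc5. Pdia3 overlaps Catsper2 by 18 bases.

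The genes with profiles most like those of 3 members were ranked by Pearson r of log2 CPM over the 6 libraries, as a description in which all points share libraries and the 2 groups. For Tap1 they were Daxx (0.998), Ogfr (0.997) and Isg15 (0.996), of which Ogfr and Isg15 were called higher. For Nlrc5 they were Apod (0.996), Kdm2a (0.988) and Pcnx (0.988), and for Calr Snapc4 (0.997), Icam1 (0.997) and Gsr (0.997), none of them called. Control replicate 1 was among the 6 libraries, and r is not given without it. GC contents were 52.8% to 59.6% in the genes named for Tap1, 47.8% to 49.4% for Nlrc5 and 50.1% to 55.8% for Calr. Whether GC content bears on r was not tested. A high r did not mean a like size: Isg15 had a log2 fold change of 4.45 and Daxx of 0.66, against 1.01 for Tap1.

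The cells carried most of the markers of their label. Of 12 macrophage identity genes 11 were tested and Mertk was at 0 counts, and the list summed to 7763 to 8125 CPM in control against 7962 to 8158 CPM in the labelled libraries. Most of this sum was Lyz2 and Csf1r, with means of 3696 and 2002 CPM in control. Fcgr3 and Aif1 had means of only 4.57 and 1.07 CPM in control. EdgeR and limma-voom called 0 of the 11, and DESeq2 called 1 higher, against 1.62% of all tested genes. By the unadjusted p (under 0.05) 1 was higher and 1 lower, against 3.71% and 3.04% of all tested genes. They were Cd14 (log2 fold change 0.52, edgeR adjusted p = 0.197) and Itgam (-0.33, edgeR adjusted p = 0.671). Without control replicate 1, edgeR called 1 higher, Cd14 (0.39, edgeR adjusted p = 0.000196), where 2.67% of all tested genes were. T and NK cell markers summed to 1.52 to 1.94 CPM in control against 2.32 to 4.13 CPM in the labelled libraries, with 7 of 9 at 0, among them Cd3e, Cd3d and Cd3g. Nearly all of it was Lck (log2 fold change 0.74, edgeR adjusted p = 0.563). Dendritic cell markers summed to 2.11 to 2.70 CPM in control against 1.46 to 2.09 CPM in the labelled libraries, with 3 of 7 at 0, Flt3 among them. The lists of B cell, neutrophil, fibroblast and epithelial markers reached no more than 0.542 CPM in any library.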

How the data were processed

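RNA of 6 RAW264.7 libraries was sequenced from NEBNext Ultra RNA libraries, per the labels' protocols. Per the submitters' processing notes, alignment used HISAT2 and the build mm10. Not given in the sources used here are the counter, its strand setting and the annotation release. The authors deposited whole-number counts per gene and FPKM per library, and the file shows FPKM to equal the count over gene length and 1 constant per library. Column names give the group and a number but not the single sample.

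Counts were tested with edgeR 4.0.16 (limma 3.58.1, R 4.3.3): TMM factors, filterByExpr with a minimum count of 10, robust quasi-likelihood, Benjamini-Hochberg adjustment over 12491 genes, and a call at an adjusted p under 0.05. The test was run on simulated data first. CPM are TMM-scaled, and log2 CPM use a prior count of 2. Ratios of FPKM were tested with exact permutation tests over libraries. The GC offsets are loess curves (span 0.5) of each library against transcript GC content. Alternatives were other scaling, DESeq2 1.42.0, limma-voom, no filter or a mean CPM of at least 1, log2 of FPKM plus 1 or plus 0.1 in limma-trend, a stricter threshold, a replicate block, library weights, GC offsets, and leaving out each library. The members, lists and tests were chosen with earlier results of these data known. All 9 members are named. Each list names up to 3 called genes with the largest change, or its most abundant gene where none was called, and lists with no call may go unnamed. For Tap1, Nlrc5 and Calr the 3 tested protein-coding genes with the highest r are named. Other genes named were picked after their values were seen. Depth of 13447021 to 16602734 counts gives each member at least 113 counts per library. Promoter sequences are from RefSeq, GRCm38.p6.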

Additional observations from a re-analysis of the deposited data

How the results depend on the processing

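Against 1 member called higher in the edgeR fit, DESeq2 called 3 (Tap1, Tapbp and Nlrc5), the fit with no filter on low counts 2 (Tap1 and Tapbp), library weights 5 (Tap1, Tap2, Tapbp, Erap1 and Nlrc5) and GC offsets 4 (Tap1, Tap2, Tapbp and Nlrc5). Limma-trend on log2(FPKM + 0.1) called 0, with Tap1 at an adjusted p = 0.0559, and an adjusted p under 0.01 left 0, as fewer genes pass a stricter threshold by construction. Of all tested genes, these settings called 0.953% and 0.656% higher. Leaving out 1 library gave 0 to 4: 4 without control replicate 1, 1 without control replicate 2 (Tap1) and 0 without each of the other 4. In the same order, these fits called 2.67%, 0.752% and 0.571% to 0.706% of all tested genes higher. Control replicate 1 had a weight of 0.104 in the fit with library weights, the lowest of the 6, and the cause of these shifts was not tested. No member was called lower in any alternative. Canx turned to -0.076, -0.037 and -0.014 without control replicate 2, control replicate 3 and labelled replicate 2, uncalled in each, and its leave-one-out values ran from -0.076 to 0.20. The other 8 members stayed positive in all 17 alternatives, Tap1 from 0.84 to 1.16. Leaving out 1 library gave 0.028 to 0.47 in Erap1 and 0.035 to 0.19 in Pdia3, with the highest value of both without control replicate 1. A replicate block called 0 members, with Tap1 at 1.03 (edgeR adjusted p = 0.105), and called 0.648% of all tested genes higher. Replicate numbers gave no clear pairing of the libraries: deviations of same-numbered libraries correlated at -0.13, -0.28 and 0.18, and only those of number 3 correlated best with their own number. With 3 libraries per group these values cannot exclude a pairing. Replicates of a group differed by more than sampling noise in every pair (chi-square per degree of freedom from 3.35 to 67.2). The low counts of Tapbpl (113 to 135 per library) limit its interval.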
